A study of Mus musculus with 2 samples.

Results

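Myeloid C-type lectin receptors are surface proteins with which neutrophils, monocytes, macrophages and dendritic cells sense sugars and glycolipids of microbes and products of dying cells. Their transcripts were followed in cells sorted from tumors that Lewis lung carcinoma (LLC) cells, a mouse tumor line, had formed in Smad3-WT and Smad3-KO mice. The family was taken as 9 named genes, Clec4n, Clec4d, Clec4e, Clec4a1, Clec4a2, Clec4a3, Clec5a, Clec7a and Clec12a, and 8 of them were found by gene symbol among the 31053 genes of the count matrix. Levels of Clec7a were not analysed here. The genes were chosen by their measured Smad3-KO and Smad3-WT levels, above all the high Clec4e and low Clec4n of the Smad3-KO library, so every difference between the 2 libraries is given as a description with no test.

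There was 1 library from Smad3-WT mice (Smad3+/+) and 1 from Smad3-KO mice (Smad3-/-), both of the C57BL/6 strain and aged 8 to 12 weeks, and each library was made from tumors pooled over several mice. In the knockout allele, a late exon of Smad3 was deleted in the whole host animal and not only in its neutrophils. CD11b+ Ly6G+ tumor-associated neutrophils (TANs) were sorted and put through 5′ single-cell RNA sequencing, in which each unique molecular identifier (UMI) marks 1 captured transcript. After quality filtering, 3520 Smad3-WT cells and 2433 Smad3-KO cells remained, with medians of 1318.5 and 1199 UMIs per cell. With 1 library per genotype, neither the spread between mice nor the effect of the genotype could be tested, and all intervals below are exact 95% intervals that cover counting error only.

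The sort was not pure and the libraries differed beyond the genotype label. The cells fell into 13 clusters, and those led by neutrophil markers made up 51.7% of the Smad3-WT and 44.3% of the Smad3-KO cells, while other clusters carried markers of macrophages, monocytes, dendritic cells, lymphocytes, fibroblasts or LLC cells. Smad3 transcripts were counted at 18.7 CPM in Smad3-WT and 171.6 CPM in Smad3-KO neutrophil-like cells (CPM, UMIs of a gene per 1000000 UMIs of the summed cells). Reads from the 5′ end of a transcript lie outside the deleted exon, so this count does not check the knockout. Xist had no UMI in Smad3-WT and was at 95.2 CPM in Smad3-KO neutrophil-like cells, and the Y-linked Ddx3y was at 112.0 and 14.0 CPM, so the mix of sexes also differed between the pools and cannot be told apart from the genotype. The sorted surface marker Ly6g was at 23.5 and 187.2 CPM. Cluster 3, described below, held 79.5% of the Smad3-KO neutrophil-like cells but 50 of their 240 Ly6g UMIs, at 49.3 CPM. Ly6g was among the leading genes of cluster 12, which held 65 cells, all Smad3-KO. The libraries shared 73 barcode sequences, and without them the members past a 2-fold limit were those named below.

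The activating members Clec4e, Clec4d, Clec4n and Clec5a signal through immunoreceptor tyrosine-based activation motifs (ITAMs), carried by the adaptor proteins Fcer1g or Tyrobp. From these motifs the signal passes to the kinase Syk and through the Card9, Bcl10 and Malt1 complex to NF-kB. Clec4e (Mincle) and Clec4d (MCL) bind glycolipids, Clec4n (Dectin-2) binds mannose-rich structures, and these receptors use Fcer1g, while Clec5a (MDL-1) uses Tyrobp and Hcst. Clec4a2 (DCIR) and Clec12a (MICL) carry inhibitory motifs that recruit the phosphatases Ptpn6 and Ptpn11, and Clec4a1 and Clec4a3 are close relatives of Clec4a2.

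All members lie on mouse chromosome 6 (mm10), and 6 of them sit together within 368023 bases. In that stretch Clec4n spans chr6:123229843-123247021 on the plus strand, Clec4d spans chr6:123262111-123275265 on the plus strand and Clec4e spans chr6:123281789-123289870 on the minus strand. The gap between Clec4n and Clec4d is 15089 bases and that between Clec4d and Clec4e is 6523 bases, so the genes with the most different ratios between the libraries are near neighbours. Clec4a1 starts the stretch at chr6:122921848-122934619, followed by Clec4a3 at chr6:122952515-122969875 and Clec4a2 at chr6:123106428-123143999. Clec5a lies apart at chr6:40574894-40585821, and Clec12a at chr6:129342691-129365303.

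Sequence around the start site was compared because myeloid genes are commonly controlled by PU.1, a transcription factor whose binding core reads GAGGAA. RefSeq windows on GRCm38.p6 running from 250 bases before to 50 bases after a start were at hand for 8 members, not for Clec4n, and 3 of them are shown, for the member that was higher in Smad3-KO neutrophil-like cells (Clec4e), its neighbour with a ratio nearer to 1 (Clec4d) and a member that was lower (Clec5a). Each is written along its own gene, 5′ to 3′, with GAGGAA or its reverse complement in capitals.
Clec4e, chr6:123289822-123290121, minus strand: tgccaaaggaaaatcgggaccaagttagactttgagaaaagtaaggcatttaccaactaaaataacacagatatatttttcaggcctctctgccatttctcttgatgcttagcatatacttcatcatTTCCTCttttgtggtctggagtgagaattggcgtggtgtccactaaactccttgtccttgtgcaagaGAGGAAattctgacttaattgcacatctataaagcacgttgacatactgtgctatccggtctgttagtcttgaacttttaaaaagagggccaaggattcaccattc
Clec4d, chr6:123261857-123262156, plus strand: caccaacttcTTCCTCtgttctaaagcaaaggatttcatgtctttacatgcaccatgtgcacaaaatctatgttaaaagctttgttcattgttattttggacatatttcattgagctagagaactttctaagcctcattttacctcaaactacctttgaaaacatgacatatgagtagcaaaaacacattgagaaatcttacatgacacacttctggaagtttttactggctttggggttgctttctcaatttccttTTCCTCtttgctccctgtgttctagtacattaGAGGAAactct
Clec5a, chr6:40585756-40586055, minus strand: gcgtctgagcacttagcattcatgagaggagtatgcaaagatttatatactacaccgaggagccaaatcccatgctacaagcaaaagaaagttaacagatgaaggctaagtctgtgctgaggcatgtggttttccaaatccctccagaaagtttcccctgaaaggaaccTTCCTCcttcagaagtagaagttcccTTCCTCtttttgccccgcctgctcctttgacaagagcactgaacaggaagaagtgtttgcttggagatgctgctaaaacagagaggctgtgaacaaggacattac

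The core was found on either strand in windows of 7 of the 8 members, among them Clec7a. These were 8 of the members' 10 windows, beside 28.3% of all 32851 windows of that length. The windows of Clec7a overlap and share the same match, which is thus counted in each, and the windows of Clec4a3 overlap too. The windows of Clec4e and Clec5a each held 2 matches, and that of Clec4d held 3. Of the other motifs searched on both strands, GGGNNNNNCC of NF-kB was found in 1 of the 10 windows (50.8% of all windows) and TTNNGNAA of C/EBP in 5 (40.7%). TGANTCA of AP-1 was found in 2 (7.81%) and CAGAC of Smad proteins in 4 (49.6%). No match of GAGGAA overlapped a match of these motifs. The motifs were chosen after the windows had been read, and a match describes letters, not binding. Clec4e, Clec5a and Clec12a all held GAGGAA, TTNNGNAA and CAGAC.

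Clec4e and Clec4n diverged in neutrophil-like cells. Clec4e stood at 2265 CPM (3761 UMIs, interval 2193 to 2338) in the 1819 Smad3-WT neutrophil-like cells and at 5093 CPM (6529 UMIs, 4971 to 5219) in the 1077 Smad3-KO ones, a ratio of 2.25 (2.16 to 2.34). Clec4n stood at 1722 CPM (2859 UMIs, 1659 to 1786) in Smad3-WT and at 56.9 CPM (73 UMIs, 44.6 to 71.6) in Smad3-KO cells, 30.2-fold lower (24.0 to 38.7). Clec4d, whose protein pairs with that of Clec4e, was between them, at 1682 CPM in the former and 1163 CPM in the latter, a ratio of 0.69 (0.65 to 0.74).

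The quotient of 2 transcripts within the same cells does not depend on the library total. There were 1.32 UMIs of Clec4e for each UMI of Clec4n in Smad3-WT neutrophil-like cells (1.25 to 1.38) and 89.4 in Smad3-KO ones (71.0 to 114.2). For Clec4e against Clec4d the quotients were 1.35 (1.28 to 1.41) and 4.38 (4.14 to 4.64). These intervals cover counting error only, and the members were chosen on this contrast, so no test is drawn from them.

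Clec5a and Clec12a were lower in the Smad3-KO library as well. Clec5a was at 207.1 CPM (344 UMIs) in neutrophil-like cells of Smad3-WT and 67.1 CPM (86 UMIs) in those of Smad3-KO, with a ratio of 0.32 (0.25 to 0.41). Clec12a was at 110.8 CPM (184 UMIs) and 33.5 CPM (43 UMIs), a ratio of 0.30 (0.21 to 0.42). The lower members thus held an activating receptor coupled to Fcer1g (Clec4n), one coupled to Tyrobp (Clec5a) and an inhibitory one (Clec12a).

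The 3 members of the Clec4a group gave fewer than 200 UMIs each in neutrophil-like cells of either library. Clec4a2 was at 111.4 CPM (185 UMIs) and 83.5 CPM (107 UMIs) in Smad3-WT and Smad3-KO, a ratio of 0.75 (0.58 to 0.96). Clec4a3 was at 21.7 CPM (36 UMIs) and 37.4 CPM (48 UMIs), a ratio of 1.73 (1.10 to 2.74), and Clec4a1 was at 12.6 CPM (21 UMIs) and 18.7 CPM (24 UMIs), a ratio of 1.48 (0.79 to 2.80). Within Smad3-WT, neutrophil-like cells held Clec4a1 at 0.071 of its macrophage-like level, against 0.23 for Clec4a3 and 0.61 for Clec4a2. The same quotient over 9 macrophage markers had a median of 0.026, with Adgre1 at 0.31 and the next highest, Trem2, at 0.036. The part of macrophage transcripts in these levels was not tested.

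**Figure D1:**
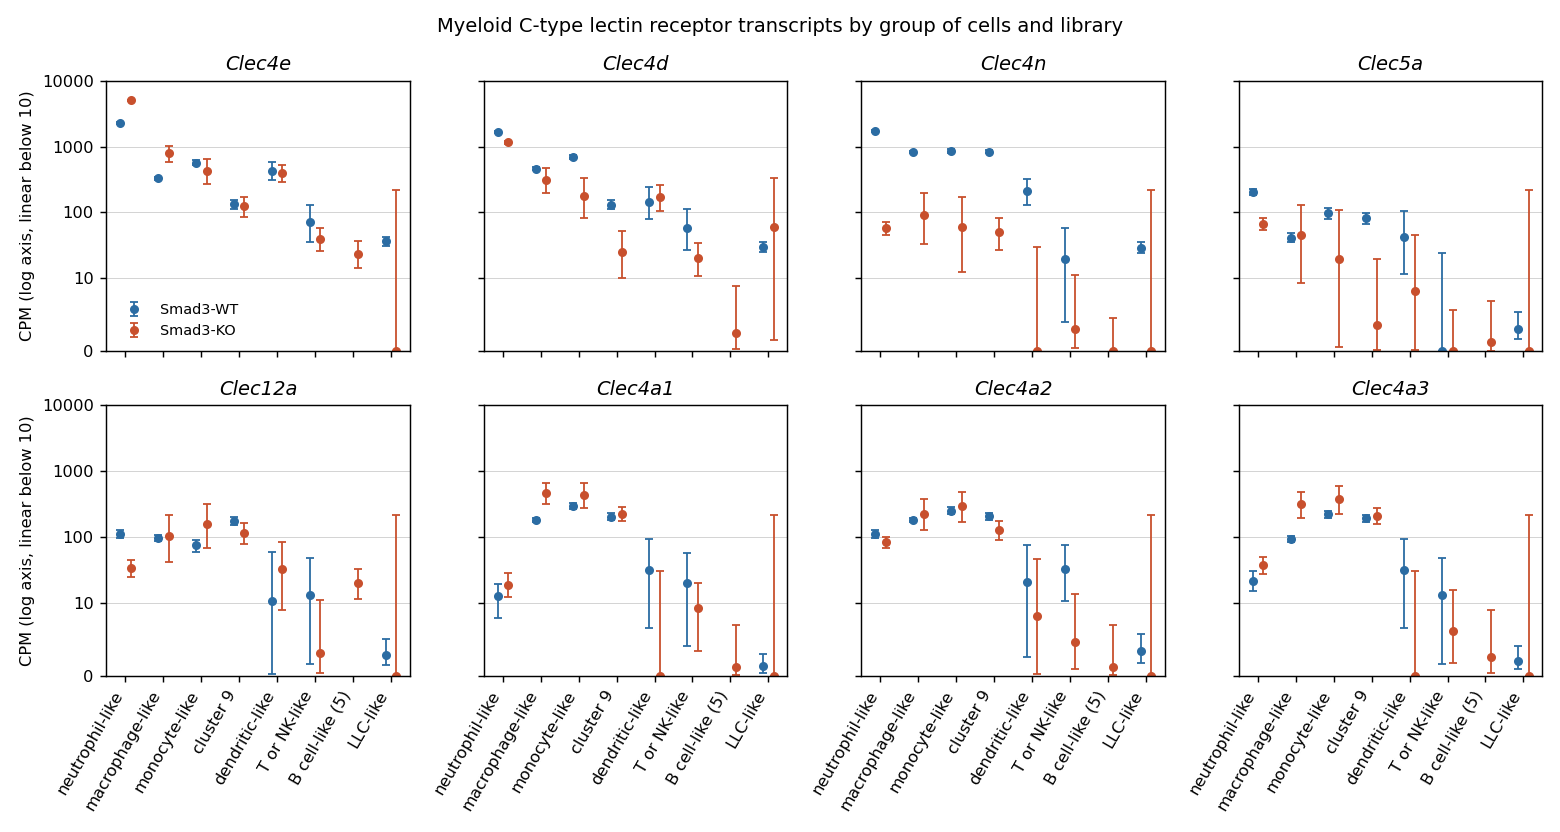
Levels of 8 members (CPM on an axis that is logarithmic above 10 and linear below it) in 8 groups of cells, with exact 95% Poisson intervals of the summed UMIs, for Smad3-WT (blue) and Smad3-KO (red), 1 library each; groups with fewer than 20 cells in a library are left out. Clec4n of Smad3-KO sits below Smad3-WT in every myeloid group. Clec4e is above it in neutrophil-like cells and in macrophage-like cells, of which only 33 were Smad3-KO. Over macrophage-like and monocyte-like cells together, the direction of Clec4e depended on the processing.

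By a rule of size, at least 2-fold either way among genes with 20 or more UMIs over both libraries, all 8 members could be read in neutrophil-like cells, where 1 was higher in Smad3-KO and 3 were lower. Of 6105 genes that could be read there, 7.42% were higher and 19.7% were lower by the same rule. Since the members were chosen on this contrast, nothing is read from these shares. The members' median ratio was 0.72 and that of all 6105 genes was 0.78. Scaling by the median of ratios, which was -0.30 on the log2 scale, instead of by totals gave 2.77 for Clec4e, 0.85 for Clec4d, 0.041 for Clec4n, 0.40 for Clec5a and 0.37 for Clec12a.

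The neutrophil-like cells of the libraries lay in different clusters, which were built without any C-type lectin gene. Cluster 1, led by Ifit3b, Cxcl3 and Egr1, held 54.2% of the Smad3-WT and 1.67% of the Smad3-KO neutrophil-like cells. Cluster 2, led by Mmp9, Cxcr2 and Il1r2, held 43.7% and 12.8%. Cluster 3, led by Il1a, Csf3 and Tnfaip3, held 2.14% and 79.5%, and cluster 12, led by the granule genes Camp, Ngp and Ltf, held 0 and 6.04%.

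Within a cluster, Clec4n was again far lower in Smad3-KO cells, while the ratio of Clec4e was nearer to 1 than over the whole class. Clec4n was at 1880 CPM in the 795 Smad3-WT cells and 98.1 CPM in the 138 Smad3-KO cells of cluster 2 (ratio 0.052, 0.025 to 0.096), at 1316 and 56.2 CPM in cluster 3 (0.043, 0.028 to 0.066), and at 1642 and 301.8 CPM in cluster 1 (0.18, 0.050 to 0.47), where only 18 cells were Smad3-KO. Clec4e was at 2091 and 3001 CPM in cluster 2 (1.43, 1.26 to 1.63), at 4446 and 5881 CPM in cluster 3 (1.32, 1.11 to 1.59) and at 2305 and 4149 CPM in cluster 1 (1.80, 1.35 to 2.35). Within each library its level was highest in cluster 3, the cluster that held most Smad3-KO neutrophil-like cells. The Smad3-WT values of cluster 3 rest on only 39 cells, with 37 UMIs of Clec4n and 125 of Clec4e. Clec5a was at 207.6 and 196.2 CPM in cluster 2 (0.94, 0.56 to 1.52), where no difference was detectable at this depth. Clec12a was lower there, with 168.8 CPM (100 UMIs) and 29.4 CPM (3 UMIs), a ratio of 0.17 (0.035 to 0.52). So was Clec4a2, with 143.5 CPM (85 UMIs) and 39.2 CPM (4 UMIs), a ratio of 0.27 (0.073 to 0.73). Clec4d was at 1445 and 1501 CPM in cluster 2 (1.04, 0.87 to 1.23) and lower in Smad3-KO cells of cluster 3, with 2063 and 1246 CPM (0.60, 0.46 to 0.80). In cluster 2, where 6 members could be read, 0 were at least 2-fold higher (6.69% of 3199 genes) and 3 were at least 2-fold lower (19.8%), Clec4n, Clec4a2 and Clec12a.

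**Figure D2:**
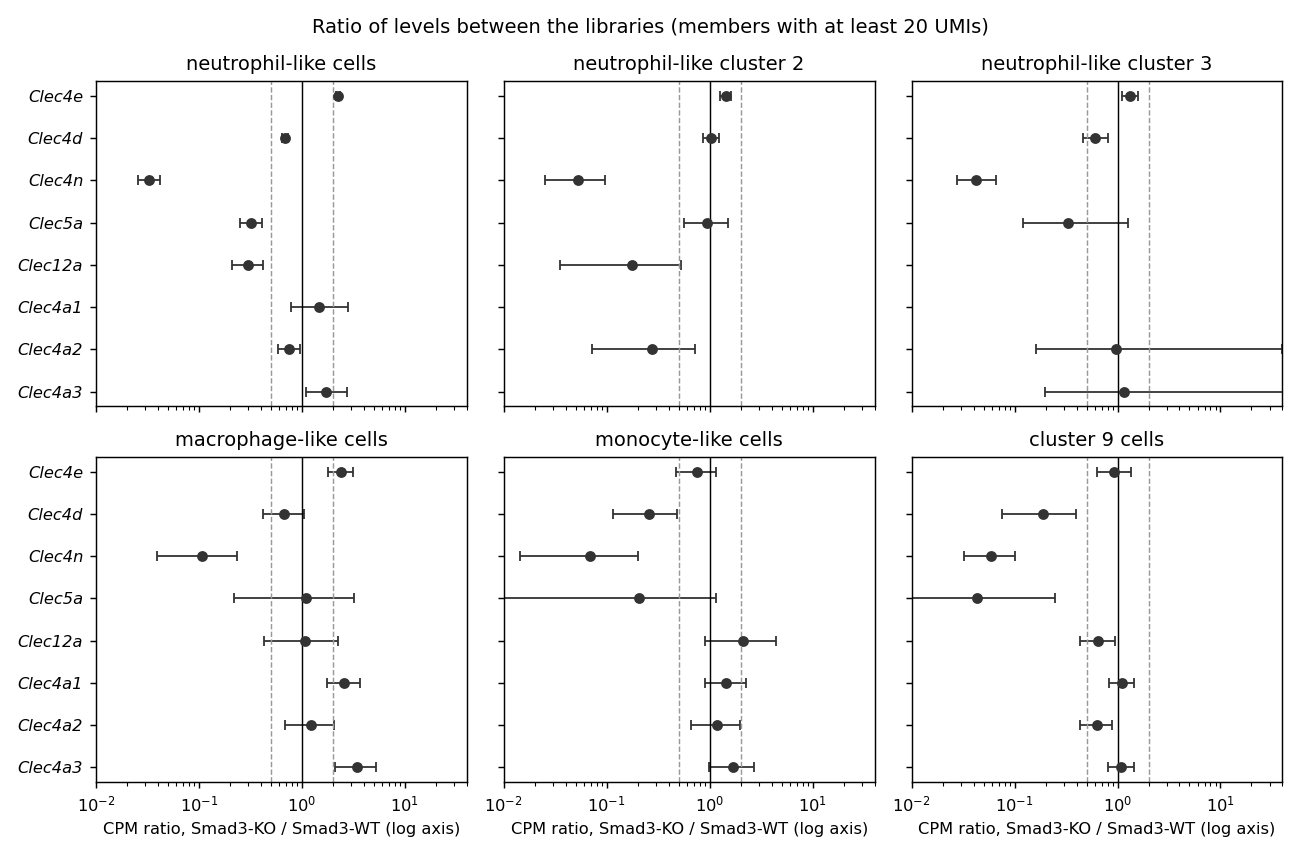
CPM ratio of Smad3-KO to Smad3-WT (logarithmic axis) with its exact 95% interval for each member with at least 20 UMIs over both libraries, in 6 groups of cells; dashed lines mark a 2-fold difference either way, and intervals that run past the axis are clipped. Clec4n lies left of the lower dashed line in all 6 groups, and Clec4e is nearer to 1 in clusters 2 and 3 than over all neutrophil-like cells.

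The granule-gene cells of cluster 12, 65 cells that were all from the Smad3-KO library, had a different set of members. The 5 markers set for such immature cells, Ngp, Camp, Ltf, Mmp8 and Lcn2, of which Lcn2 was also among the leading genes of cluster 3, summed to 716.6 CPM in all Smad3-WT and 16363 CPM in all Smad3-KO neutrophil-like cells. Cells of cluster 12 held Clec4a2 at 447.1 CPM (347.2 to 566.8) and Clec12a at 190.7 CPM (127.7 to 273.8), each above its level in the Smad3-KO cells of cluster 3, 34.5 and 10.8 CPM. Clec4e, at 1328 CPM, and Clec4d, at 348.5 CPM, were below their levels in Smad3-KO cells of cluster 3. Clec4n had 2 UMIs in these cells. Without cluster 12 the ratio of Clec4a2 over neutrophil-like cells was 0.31 (0.21 to 0.44) in place of 0.75, past the 2-fold limit, and that of Clec12a was 0.11 (0.060 to 0.19) in place of 0.30.

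Shares of positive cells were read after each cell was thinned to 500 UMIs, since the median depth of neutrophil-like cells was 742 UMIs for Smad3-WT but 1015 for Smad3-KO. Clec4e was seen in 54.2% of Smad3-WT cells (51.9 to 56.5) and 77.0% of Smad3-KO cells (74.3 to 79.5). Clec4n was seen in 42.6% (40.3 to 44.9) and 3.16% (2.20 to 4.38), and Clec4d in 53.3% (50.9 to 55.6) and 43.4% (40.4 to 46.4). Before thinning the shares were 66.2% and 87.0% for Clec4e, 54.7% and 5.11% for Clec4n, and 67.9% and 64.3% for Clec4d. In the B cell-like cells of cluster 5, which should lack these transcripts and had a median of 1202 UMIs in the Smad3-KO library, thinned shares were 1.62% for Clec4e and 0 of 493 cells for Clec4n and for Clec4d, which allows a share of up to 0.61% by a floor of 3 cells and 0.75% by the exact interval. The Clec4n share of Smad3-KO neutrophil-like cells was above that background. In LLC carcinoma-like cells of the Smad3-WT library, with a median of 13484 UMIs, the thinned shares were 3.13% for Clec4e, 3.76% for Clec4n and 2.19% for Clec4d, all below the Smad3-WT neutrophil-like cells. Thinned shares of Clec5a were 7.86% and 3.06%, and those of Clec12a were 3.63% and 1.02%, the second of which was close to the 0.61% (0.13 to 1.77) of cluster 5.

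Cells with one of the neighbouring transcripts were compared with cells without it. The neutrophil-like cells of a library were pooled over their clusters here, although the level of Clec4e differed between clusters. The part of cluster make-up in these shares was not tested. In Smad3-WT neutrophil-like cells, Clec4n was seen in 41.0% of cells with Clec4e (37.9 to 44.1) and 44.5% of cells without it (41.1 to 48.0). Clec4d was seen in 55.5% of Smad3-WT cells with Clec4e and 50.7% of those without it, and in 45.7% and 35.5% of Smad3-KO cells. All 3 of Clec4n, Clec4d and Clec4e were seen in 12.1% of Smad3-WT cells (10.7 to 13.7) and 1.02% of Smad3-KO cells (0.51 to 1.82), whereas none of them was seen in 12.4% and 14.4%. Among Smad3-KO cells with a UMI of Tnf, 89.7% had Clec4e (85.0 to 93.3), against 73.5% of those without (70.4 to 76.4). In Smad3-WT the shares of Clec4e were 58.5% (49.0 to 67.5) and 53.9% (51.5 to 56.3). Clec4n was seen in 60.2% of Smad3-WT cells with Tnf (50.7 to 69.1) and 41.4% of those without (39.0 to 43.8), and in 2.16% and 3.43% of the Smad3-KO cells.

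**Figure D3:**
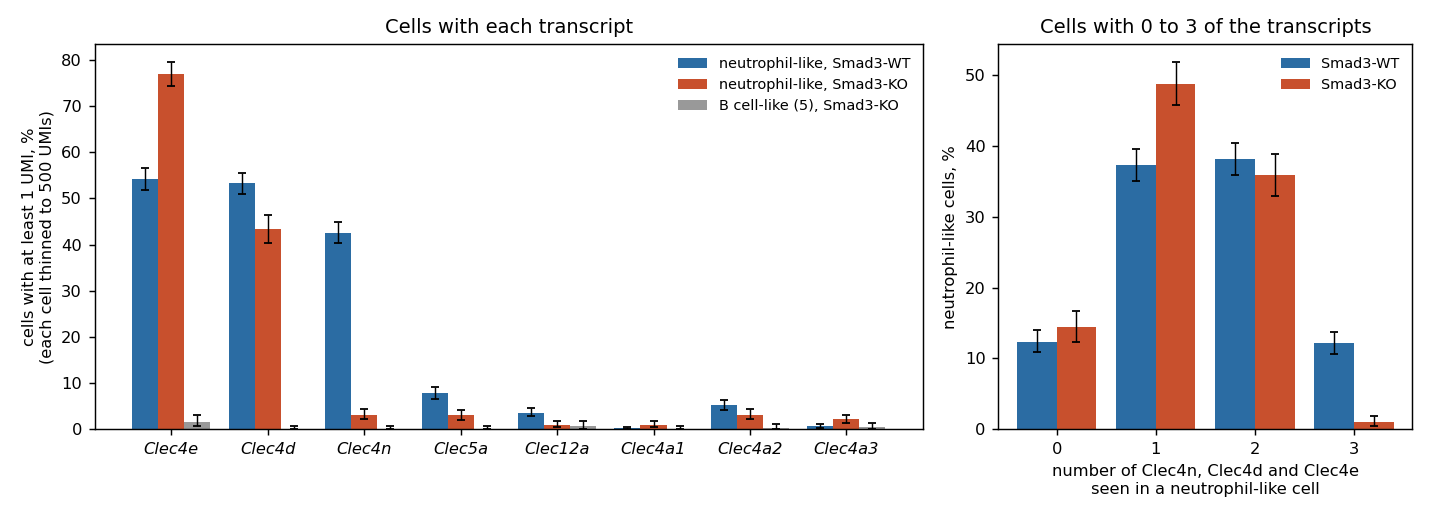
Left, share of cells (%) with at least 1 UMI of each member after thinning each cell to 500 UMIs, with exact binomial 95% intervals, in neutrophil-like cells of both libraries and in B cell-like cells of cluster 5 as background; right, share of neutrophil-like cells in which 0, 1, 2 or 3 of Clec4n, Clec4d and Clec4e were seen. Clec4n marked 42.6% of the Smad3-WT cells but 3.16% of the Smad3-KO cells, and all 3 transcripts were seen in 12.1% and 1.02%.

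Clec4n was low in the Smad3-KO library in other myeloid cells too. It was at 838.2 CPM in 606 Smad3-WT macrophage-like cells and 89.9 CPM (6 UMIs, 33.0 to 195.8) in 33 Smad3-KO ones, a ratio of 0.11 (0.039 to 0.23). In monocyte-like cells it was at 856.0 and 59.2 CPM (3 UMIs), a ratio of 0.069 (0.014 to 0.20). In cluster 9, an unnamed cluster led by H2-Eb1, Mgl2, Cd209a and Cd74, it was at 838.8 and 49.8 CPM (14 UMIs), a ratio of 0.059 (0.032 to 0.10). Dendritic-like cells of Smad3-WT held 20 UMIs and those of Smad3-KO none (0 UMIs), at least 8.48-fold lower against a floor of 3 UMIs over the group, and at least 6.28-fold by the exact interval of the ratio, which also counts the error of the 20 UMIs. Those 20 UMIs were 208.8 CPM, no higher than the 249.8 CPM (81 UMIs) of Smad3-WT fibroblast-like cells, which are not myeloid. Smad3-KO fibroblast-like cells were at 5.43 CPM (2 UMIs), a ratio of 0.022 (0.0026 to 0.081). The part of transcripts carried over from other cells in these 2 groups was not tested.

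The same 4 groups were read over all genes. Of 4725 genes with at least 20 UMIs over both libraries in each of the groups, neutrophil-like, macrophage-like, monocyte-like and cluster 9, 53 (1.12%) were at least 2-fold lower in Smad3-KO in all of them with 0 UMIs counted as lower, and of the 8 members 1, Clec4n, was among them. A limit of 8-fold, set after the values were seen, left 5 genes, Clec4n, the chemokine genes Ccl7 and Ccl24, the histone gene Hist1h4m and Gm34084. Of these, Ccl24, Hist1h4m and Gm34084 had no UMIs in the Smad3-KO library in at least 3 of the groups, so their folds are not measured values.

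The ratios of the other members varied between the groups outside neutrophil-like cells. Clec4e was at 332.2 CPM in Smad3-WT and 794.5 CPM in Smad3-KO macrophage-like cells (2.39, 1.78 to 3.15). The second value rests on 53 UMIs in 14 of 33 cells. In monocyte-like cells Clec4e was at 574.8 and 434.2 CPM (0.76, 0.47 to 1.15), and in cluster 9 at 133.8 and 124.4 CPM (0.93, 0.63 to 1.34). Clec4d was at 463.9 and 314.8 CPM in macrophage-like cells (0.68, 0.42 to 1.04), near its ratio in neutrophil-like cells. It was at 695.5 and 177.6 CPM in monocyte-like cells (0.26, 0.12 to 0.49) and at 131.4 and 24.9 CPM in cluster 9 (0.19, 0.075 to 0.40). In cluster 9, Clec5a was counted 103 times in the Smad3-WT and 1 time in the Smad3-KO library (0.043, 0.0011 to 0.25). Clec4a1 was at 179.2 and 464.7 CPM in macrophage-like cells (2.59, 1.75 to 3.72), Clec4a3 was at 92.4 and 314.8 CPM (3.41, 2.08 to 5.30), and in cluster 9 their ratios were 1.10 and 1.09.

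Over macrophage-like and monocyte-like cells together, with only 53 cells in Smad3-KO, all 8 members could be read, and 2 were at least 2-fold higher, Clec4a1 (2.16) and Clec4a3 (2.72), against 15.5% of 9616 genes. The members' median ratio was 1.34 and that of all genes 0.998. In the same cells 2 were at least 2-fold lower, Clec4n (0.091) and Clec4d (0.49), against 23.4%. The summed level of the 9 neutrophil markers in these cells was 5059 CPM in Smad3-WT and 5095 CPM in Smad3-KO, and Ly6g was at 0 in the latter. Without macrophage-like or monocyte-like cells that held at least 5 UMIs of S100a8 and S100a9, the ratio of Clec4e was 0.85 in place of 1.63, and it was below 1 in 6 of 13 alternatives, so its direction in these cells depended on the processing. The ratios of Clec4n (0.085) and Clec4a3 (2.80) kept their side of the 2-fold limit there, but that of Clec4a1 was 1.91, and with median-of-ratios scaling, a shift of 0.30 on the log2 scale in these cells, it was 1.75.

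Lymphocyte-like and tumor-like cells held few of the transcripts. In T or NK-like cells Clec4e was at 71.6 CPM in Smad3-WT and 39.8 CPM in Smad3-KO, and in LLC carcinoma-like cells of Smad3-WT Clec4e, Clec4d and Clec4n were at 36.2, 29.8 and 29.0 CPM. The 193 cells of cluster 10, all Smad3-KO, carried all 6 B cell markers but also Clec4e at 2062 CPM and Clec4d at 529.9 CPM. Their 9 neutrophil markers summed to 18535 CPM, against 1503 CPM in the B cell-like cluster 5, and their median depth was 2235 UMIs. The part of mixed droplets in cluster 10 was not tested, and the cluster was kept out of the neutrophil-like cells.

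Adaptors and kinases of the pathway were compared in neutrophil-like cells. Fcer1g, the adaptor of Clec4e, Clec4d and Clec4n, was at 3786 CPM in Smad3-WT and 4462 CPM in Smad3-KO (1.18, 1.14 to 1.22), whereas Tyrobp, the adaptor of Clec5a, was at 6871 and 2209 CPM (0.32, 0.31 to 0.33). Tyrobp was at 8335 and 4668 CPM within cluster 2 (0.56, 0.51 to 0.62) and at 4802 and 1914 CPM within cluster 3 (0.40, 0.33 to 0.48). It was at 2516 and 2623 CPM in macrophage-like cells (1.04, 0.89 to 1.21), but at 3903 and 2645 CPM in monocyte-like cells (0.68, 0.57 to 0.80). Fcer1g and Tyrobp were chosen for naming after their values were seen. Of the 10 adaptor and kinase genes, 1 was at least 2-fold higher in Smad3-KO and 2 were at least 2-fold lower, shares near the 7.42% and 19.7% of all genes, with a median ratio of 1.15, beside 0.78 over all genes.

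Of the 8 genes of the Card9 complex and the NF-kB subunits, 4 were at least 2-fold higher and 0 were lower, beside 7.42% and 19.7% of all genes, with a median ratio of 1.97. Those 4 were Malt1 and the subunits Nfkb1, Nfkb2 and Rel. The other parts of the complex were not higher, with Bcl10 at a ratio of 0.91 (0.73 to 1.13). Card9 had 17 and 7 UMIs (0.53, 0.19 to 1.35). Genes other than Malt1 were named here after their values were seen. Malt1, the protease of that complex, was at 39.1 CPM in Smad3-WT and 236.4 CPM in Smad3-KO neutrophil-like cells (6.04, 4.61 to 8.02), with 286 of its 303 Smad3-KO UMIs in cluster 3. In cluster 2 it had 19 and 1 UMIs (0.31, 0.0074 to 1.92). Within cluster 3 it was at 106.7 CPM (3 UMIs) and 281.9 CPM (286 UMIs), a ratio of 2.64 (0.89 to 12.9). The part of cluster make-up in the ratios of this list was not tested. Among 3 phosphatase genes of the inhibitory receptors, 0 were higher and 1 was lower, against the same background, with a median ratio of 0.62.

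The genes that Syk and Card9 are known to induce were split. Of 15, 11 had enough UMIs, 4 were at least 2-fold higher and 2 were at least 2-fold lower, beside 7.42% and 19.7% of all genes, with a median ratio of 1.42. Csf3, a growth factor for neutrophils, was counted 13 and 387 times in Smad3-WT and Smad3-KO (38.6, 22.3 to 73.1), Tnf was at 194.5 and 771.6 CPM (3.97, 3.50 to 4.51), and Il23a, a subunit of interleukin-23, had 13 and 37 UMIs (3.69, 1.92 to 7.56). Egr2 and Egr3, early growth response factors, were lower, at 119.8 and 10.9 CPM (0.091, 0.049 to 0.16) and at 27.7 and 3.12 CPM (0.11, 0.029 to 0.31). The rest that could be read were Nlrp3 (2.52), Cxcl2 (1.45), Ccl3 (1.42), Ptgs2 (1.02), Il1b (1.01) and Cxcl1 (0.54), named here after their values were seen. Csf3 and Tnf were also among the leading genes of cluster 3, which held 79.5% of Smad3-KO and 2.14% of Smad3-WT neutrophil-like cells. The part of cluster make-up in these ratios was not tested.

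Of the other receptors that use Fcer1g or Tyrobp, 8 of 10 could be read, with 1 higher and 3 lower by the same rule (7.42% and 19.7% of all genes). Cd300lb, which couples to Tyrobp, was at 179.4 and 43.7 CPM (0.24, 0.18 to 0.32). The 1 higher was Trem3, at 56.0 and 153.7 CPM (2.74, 2.13 to 3.55), and Trem1 was at 814.1 and 987.6 CPM (1.21, 1.12 to 1.31). Trem3 and Trem1 were named after their values were seen. Of 22 further C-type lectin receptors 7 could be read in neutrophil-like cells, with 2 higher and 2 lower, against the same background. The endocytic receptor Ly75 had 5 and 31 UMIs (8.03, 3.10 to 26.5), Clec1a had 27 and 3 UMIs (0.14, 0.028 to 0.47), and the mannose receptor Mrc1 had 21 and 2 UMIs (0.12, 0.014 to 0.50). Mrc1 was also among the macrophage markers, and its Smad3-WT neutrophil-like level was 0.026 of its macrophage-like level. The part of macrophage transcripts in its few UMIs was not tested. Clec4a4, Clec4b1 and Clec4b2, which lie among the members on chromosome 6, had at most 8 UMIs in neutrophil-like cells of either library.

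Genes that respond to tissue dissociation were read in the same way. Of 10 such genes, 1 was at least 2-fold higher in Smad3-KO neutrophil-like cells and 2 were at least 2-fold lower, near the 7.42% and 19.7% of all genes, with Egr1 at 3408 and 853 CPM (0.25) and Jun at 1281 and 550 CPM (0.43). The summed level of the 9 macrophage markers in neutrophil-like cells was 257.1 CPM in Smad3-WT, where all were detected, and 87.4 CPM in Smad3-KO, where Trem2 and Mmp12 were at 0, and the 7 monocyte markers summed to 416.1 and 720.1 CPM, all of them detected in both. Of the monocyte markers, Chil3 was also among the leading genes of the neutrophil-like cluster 12, whose cells were all Smad3-KO. Apart from a filter on macrophage markers, the part of all these genes in the members' differences was not tested. Without neutrophil-like cells holding at least 2 UMIs of C1qa, C1qb, C1qc, Apoe and Pf4 the ratios of Clec4e and Clec4n were 2.24 and 0.033.

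The authors deposited averages of 13 clusters of their own, formed over all cells of both libraries and scaled to 1311 UMIs. These numbers are not the cluster numbers used above. S100a8 averages between 27.2 and 67.9 UMIs set the deposited clusters 1, 3, 4, 6 and 10 apart as those rich in neutrophil transcripts. Clec4e averaged 8.45 UMIs in deposited cluster 3, where Csf3 was also highest at 0.53 UMIs, and between 1.68 and 4.06 in the other four. Clec4n averaged 0.10 UMIs in deposited cluster 3 and 2.85 in deposited cluster 10, where the granule gene Ngp was highest at 12.1 UMIs, and 1.78 and 1.80 in deposited clusters 1 and 6. An average over a deposited cluster does not show whether the same cells held Ngp and Clec4n. The granule-gene cells described above, all from the Smad3-KO library, held almost no Clec4n. Clec4d varied less over these 5 clusters, from 1.17 to 2.31 UMIs. Clec5a was at 0.060 in deposited cluster 3 and 0.40 in deposited cluster 10, and Clec12a at 0.012 and 0.24.

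Clec4a1 and Clec4a3 were highest outside these 5 clusters. Clec4a1 averaged 0.325 UMIs in deposited cluster 5, 0.327 in cluster 7 and 0.335 in cluster 12, where C1qb was between 0.68 and 2.83, and at most 0.052 in each of the others. Clec4a3 followed it, with 0.26, 0.22 and 0.18 UMIs and at most 0.059 in the others, whereas Clec4a2 was highest in the Ngp-rich deposited cluster 10, at 0.37 UMIs, followed by 0.31 in cluster 7 and 0.28 in cluster 5. All members were at or below 0.025 UMIs in deposited cluster 11, which had the highest Krt8.

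**Figure D4:**
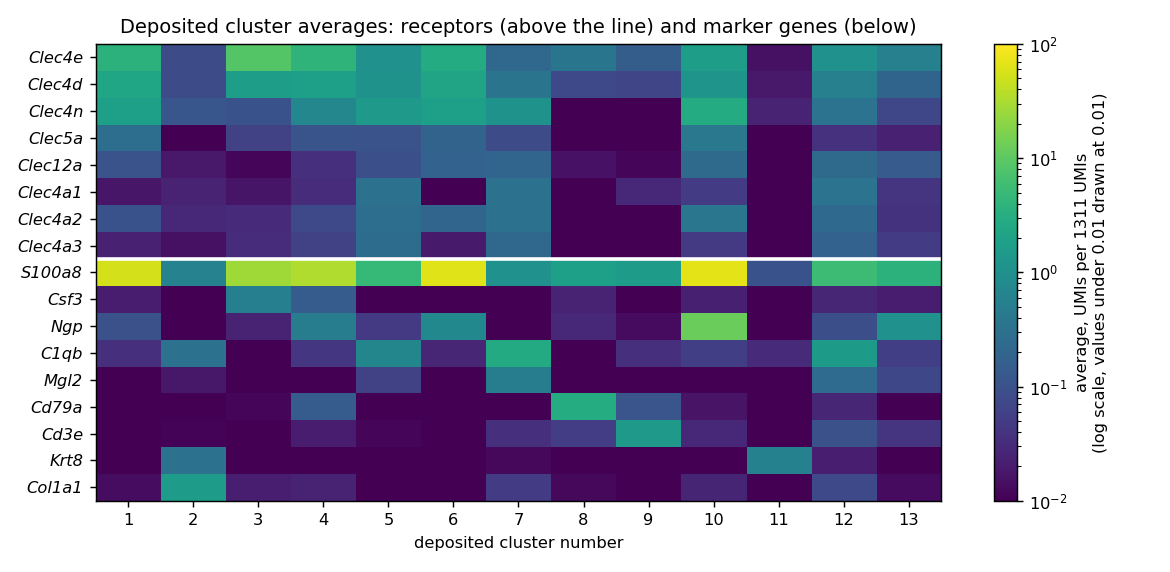
Averages deposited by the authors for their 13 clusters, in UMIs per 1311 UMIs on a logarithmic colour scale, for 8 receptors and, below the white line, 9 marker genes. Clec4e is highest in cluster 3, with 8.45, where Clec4n is at 0.10, and Clec4n is highest in cluster 10, with 2.85.

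Likeness to each member was described by Pearson's r over these 13 averages on the log2 scale, which share cells, depth and scaling across genes, and carries no test. The profile nearest to Clec4e was that of the chemokine gene Cxcl2 (r = 0.99), followed by Slfn4 and Mcl1. Clec4d was nearest to Lilrb4a, Thbs1 and Ccr1 (each r = 0.99), and Clec4n to Ltb4r1, Gm34084 and Pilrb1 (each r = 0.96). Clec4a2 was nearest to Aldh3b1, Cfp and Cd300c2, and Clec4a3 to Psap, Acer3 and Ggh. Clec5a was nearest to B430306N03Rik, Arl11 and F630028O10Rik, and Clec12a to Vamp8, Ehbp1l1 and Pirb. Among the members, Clec4e had r = 0.93 with Clec4d and r = 0.56 with Clec4n, and Clec4n had r = 0.93 with Clec5a.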

How the data were processed

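Single-cell 5′ RNA libraries of CD11b+ Ly6G+ cells from LLC tumors were analysed, 1 per genotype. The deposited counts of UMIs per gene and cell were made by the authors with Cell Ranger 3.0.2, per the file headers, on mm10, per the labels. The averages deposited by the authors are a signal in UMIs per 1311 UMIs, for each library and for 13 clusters. Their log2 fold changes and p-values were not used. The library behind each barcode suffix was recognised because its recomputed averages equalled the deposited ones (largest difference 3.58e-08 over 19114 genes, against 31.8 for the opposite pairing). Columns that belonged to no sample of this series numbered 0.

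Barcodes entered with more than 500 and fewer than 20000 UMIs, 200 or more genes and a mitochondrial share below 10%. The upper UMI limit removed 382 Smad3-WT cells. They were clustered with scanpy 1.11.5 and igraph 0.11.9 (2000 variable genes without C-type lectin genes, 100 principal components, 15 neighbours, Louvain resolution 1) and named "-like" where at least 3 markers of a type were seen in 10% of the cells at 2 times the level of the others. No doublets were removed.

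UMIs were summed per library and group of cells and divided by their total (CPM). Ratios carry exact intervals from the split of the UMIs, levels carry Poisson intervals and shares carry Clopper-Pearson intervals, all at 95% and covering counting error only. The steps were tested on simulated data. The members, gene lists and rules were chosen with earlier results of these data known. Genes named besides the members were the 5 highest and 5 lowest ratios of the pathway and receptor lists, the 3 profiles most like each member (log2 of the average + 0.01, genes with at least 200 UMIs) and the leading genes of clusters. The profiles most like Clec4a1 are not reported here. Gene positions came from GENCODE vM21 on mm10 and start-site windows from RefSeq. Alternatives varied the filter, clusters, scaling, depth, mixed droplets and limits.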

Additional observations from a re-analysis of the deposited data

How the results depend on the processing

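In neutrophil-like cells the number of members at least 2-fold lower in Smad3-KO was 3, beside 19.7% of all genes. It was 3 or 4 under all 17 alternatives. In cluster 2 alone the 3 were Clec4n, Clec4a2 and Clec12a, without Clec5a, beside 19.8% of all genes there. Shares of all genes were not computed for the other alternatives, so nothing is read from these counts. The ratio of Clec4n ranged from 0.031 to 0.052. That ratio was 0.042 as a mean over cells, 0.043 with each cell thinned to 500 UMIs and 0.052 in cluster 2 alone. The ratio of Clec4e stayed above 1 under all 15 alternatives. It was 2.42 at a Louvain resolution of 0.1, 2.77 with median-of-ratios scaling, 2.38 in thinned cells, 2.47 without the Ngp, Camp and Ltf cluster and 1.43 in cluster 2 alone. The number of members at least 2-fold higher was 1, beside 7.42% of all genes. It became 3 with all called barcodes, with 30 principal components, as a mean over cells and in thinned cells. It was 2 with another seed, with median-of-ratios scaling and at a fold of 1.5, and 0 in cluster 2 alone (6.69% of all genes). The genes added were Clec4a3 and, at 3, Clec4a1. The ratios of Clec4a1 (0.82 to 15.5) and Clec4a3 (0.58 to 3.80) rest on few UMIs, and each changed direction under 1 alternative, as did that of Clec4d (0.66 to 1.04).

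In macrophage-like or monocyte-like cells, with 53 Smad3-KO cells, the number at least 2-fold higher was 2, beside 15.5% of all genes. It became 1 with all called barcodes, without an upper UMI limit, as a mean over cells, with median-of-ratios scaling and without mixed droplets. It became 0 with the MetaCell filter and with C-type lectin genes kept for clustering. It was 3 in thinned cells, with Clec12a added, and at a fold of 1.5, with Clec4e added. The number at least 2-fold lower was 2, beside 23.4% of all genes, and became 1 as a mean over cells. It became 3, with Clec5a added, with all called barcodes, without an upper UMI limit, with the MetaCell filter and at a resolution of 0.1. The same 3 were found with 30 principal components, with C-type lectin genes kept and at a fold of 1.5. Shares of all genes were not computed under these alternatives. The ratio of Clec4n stayed between 0.056 and 0.21, whereas that of Clec4e ran from 0.54 to 1.89. The cause of these moves was not tested. The comparisons within cluster 2 and without shared barcodes were chosen after seeing the data. No paired analysis was possible because each genotype had 1 library.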
